A study of Mus musculus with 8 samples.

Results

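The genes described here are 39 mouse genes of blood vessel growth and oxygen sensing, and the data are the H3K27ac regions near them that were called higher or lower in myotubes lacking Nrip1. The genes were chosen by name for their known role, with earlier results of these data known. A region was counted for a gene when a transcription start of that gene was the nearest start of any protein-coding gene to the region's centre, or when the centre lay within 100 kb of a start of the gene. By these rules 101 regions belonged to the 39 genes, out of 11179 regions placed on chromosomes, and 32 of the 39 genes had at least 1 region.

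H3K27ac, acetylation of lysine 27 on histone H3, marks active promoters and enhancers and was mapped by CUT&RUN, in which an antibody directs a nuclease to marked chromatin and the released DNA is sequenced. The 8 libraries were Nrip1KO and Ctrl myotubes, each with an H3K27ac antibody and with IgG, 2 libraries per group. Nrip1 encodes RIP140, a coregulator of nuclear receptors that represses oxidative genes in muscle, and the question was where the mark changes without it. The deposited data are 2 lists of regions, 3917 increased and 7263 decreased in KO myotubes by at least 2-fold in peak intensity.

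Both genotypes were satellite cells from gastrocnemius muscle that had been passaged and then differentiated for 4 days. Per the methods of the study, the mice carried loxP sites around an exon of Nrip1, the KO mice also carried Cre under a muscle promoter, and littermates without Cre served as controls. Muscle creatine kinase and myogenin promoters were both used in that work. Its text assigns the CUT&RUN myotubes to the muscle creatine kinase line, whereas the labels give Nrip1KO without the promoter. Nuclei were pooled and divided between antibodies, and whether the 2 libraries of a group came from separate mice is not stated in the sources used here. The lists hold positions only. Levels per library, effect sizes, replicate error, IgG background and depth are therefore unknown, and no test between genotypes was possible. Intervals given below cover counting error over genes or regions only. A smaller number of cells of some type and less of the mark per cell cannot be told apart in such cultures, and the label of myotube could not be checked against marker levels.

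New vessels sprout when VEGF ligands reach their receptors on endothelial cells, and angiopoietins, Notch, PDGF and thrombospondins then steer how the sprout branches, matures or stops. Muscle fibers are a main source of VEGF in muscle, and capillary density rises with endurance training. When oxygen falls, the HIF alpha subunits escape hydroxylation by the Egln enzymes, pair with ARNT and bind RCGTG elements at target genes such as Vegfa. Many of the receptors in this list belong to endothelial cells rather than to muscle cells.

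Regions of the 39 genes were mostly decreased, which for nearest regions held only when protein-coding genes alone could be the nearest gene. Of the 101 regions, 26 were increased and 75 decreased, so that 25.7% were increased (95% Wilson interval 18.2 to 35.0) beside 35.0% of all 11179 regions. A nearest increased region was found for 14 of the 39 genes, or 35.9% (22.7 to 51.6), where 10.6% of all 21938 protein-coding genes had such a region. A nearest decreased region was found for 15 genes, or 38.5% (24.9 to 54.1), against 17.8% of all genes. Both directions met at 6 genes (Vegfc, Nrp1, Nrp2, Angpt1, Angpt2 and Thbs1), which is 15.4% beside 3.07% of all genes. A nearest region of either direction was found for 23 genes, or 59.0% (43.4 to 72.9, against 25.4%), and none for 16. When every annotated gene, non-coding genes included, could be the nearest, the lean among nearest regions ended, with 10 increased regions at 9 of the 39 genes and 10 decreased regions at 7.

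The genes sit in sparse surroundings, which bears on these shares. The stretch of bases nearest to the starts of a gene, called its territory here, had a median of 170 kb for the 39 genes and 45.1 kb for all protein-coding genes, and a longer territory collects more regions. Counted per length, decreased regions were still denser in the territories of the 39 genes, at 5.17 per Mb (exact Poisson 95% interval 3.81 to 6.85) against 2.66 per Mb genome-wide. The interval treats regions as independent, although they were clustered at a few genes. Of the 48, Angpt2 and Thbs1 held 8 each, Cxcl12 held 6, and Vegfa and Cdh5 held 5 each. Joining regions of the same direction within 10 kb left 36. Increased regions stood at 1.94 per Mb (1.15 to 3.06) against 1.44, a difference within the counting interval. This contrast turned when every annotated gene could be the nearest, since both directions then stood at 3.58 per Mb (1.72 to 6.58), an interval that holds the 2.66 of decreased regions and lies above the 1.44 of increased regions. Within a fixed 100 kb of a start the share for each direction came close to the background. An increased region was found at 12 genes (30.8%, 18.6 to 46.4, against 24.1% of all genes) and a decreased region at 20 genes (51.3%, 36.2 to 66.1, against 42.7%). Either direction was found within 100 kb of 29 genes (74.4%), with an interval of 58.9 to 85.4 that lies just above the 57.9% of all genes. Both directions were found at Pgf, Angpt2 and Fgf2 (7.69%, against 8.86%).

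Genes in broad classes of territory were compared as a check chosen after the data had been seen. Among genes with 200 kb or more, 10 of 16 members had an increased region, or 62.5% (38.6 to 81.5), beside 34.1% of all genes of that class. In the same class 8 of 16 had a decreased region, or 50% (28.0 to 72.0), beside 38.0%. Between 50 and 200 kb, 7 of 13 members had a decreased region, or 53.8% (29.1 to 76.8), beside 24.0%, and 3 of 13 had an increased region, or 23.1% (8.18 to 50.3), beside 11.8%. Of the 10 members under 50 kb, 1 had an increased region (3.66% of all such genes) and 0 a decreased region (8.57%). The 0 of 10 allows a share of up to 27.8%.

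**Figure D1:**
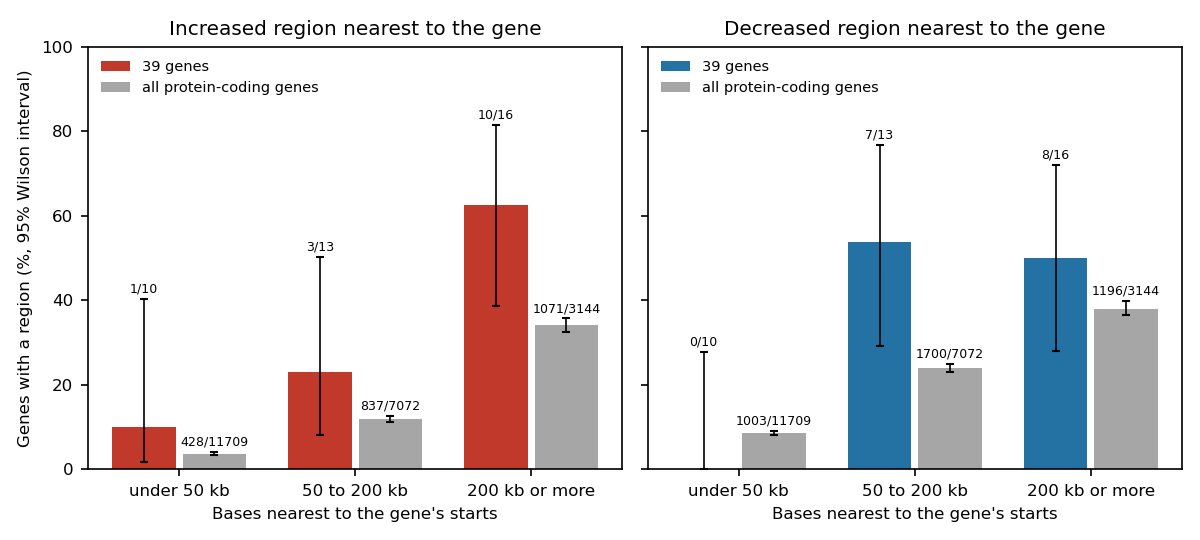
Share of genes with a nearest increased region (left) or a nearest decreased region (right), in percent, for the 39 genes and for all protein-coding genes, by length of territory. Bars give the share, lines the 95% Wilson interval and labels the genes with a region over the genes of the class. The widest gaps between the bars are at 200 kb or more for increased regions (62.5% against 34.1%) and at 50 to 200 kb for decreased regions (53.8% against 24.0%).

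Most regions were far from the genes they were counted for. The median distance from the nearest start was 72.2 kb for the 18 nearest increased regions and 103 kb for the 48 nearest decreased regions, where all regions had medians of 25.1 and 17.1 kb. Only 11 of these 66 regions lay within 10 kb of the start, at Angpt2, Cxcl12, Egln1, Esm1, Fgf2, Pdgfb and Pecam1. Over all 101 regions, 13 of 26 increased and 36 of 75 decreased regions were centred in introns, and 11 and 26 in intergenic sequence. Promoter-proximal regions, with a centre within 1 kb of any annotated start, made up 2 of 26 increased regions (7.69% against 15.2% of all increased regions) and 9 of 75 decreased regions (12% against 11.2%). Gene bodies of the members were touched by 4 increased regions (Angpt1, Angpt2, Fgf2 and Nrp1) and 12 decreased regions in 7 genes (Angpt1, Angpt2, Cdh5, Cxcl12, Nrp2, Pdgfc and Pecam1).

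**Figure D2:**
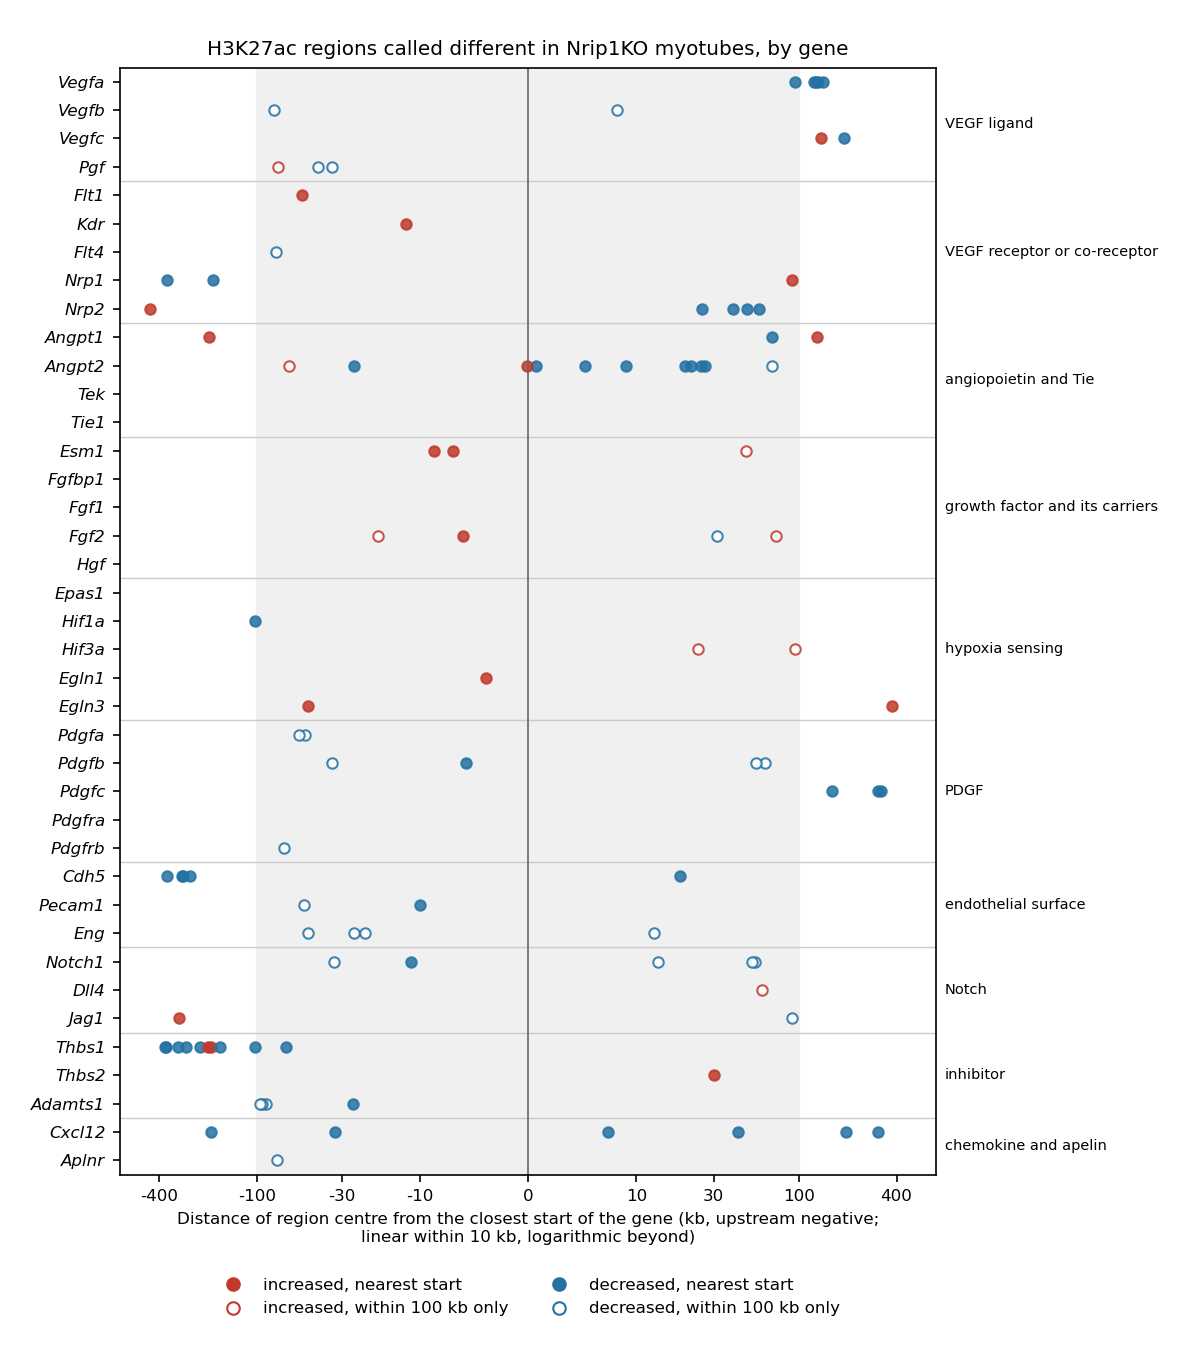
Each point is a called region, placed by the distance of its centre from the closest start of the gene in kb, upstream negative, on an axis that is linear within 10 kb and logarithmic beyond. Red marks increased and blue decreased regions, filled points have the gene as nearest start, open points are within 100 kb only, and the shaded band spans 100 kb on each side. PDGF and endothelial surface genes hold blue points only, Esm1, Hif3a, Egln1 and Egln3 red points only, and Tek, Tie1, Epas1, Fgfbp1, Fgf1, Pdgfra and Hgf none.

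The VEGF ligands had more decreased than increased regions, and none within 8 kb of a start. Vegfa, the main VEGF ligand of muscle, was nearest to 5 decreased and 0 increased regions. They formed a row downstream of the gene, at 95.2, 124, 128, 132 and 141 kb from its closest start, and were 501 to 3404 bp wide. The closest increased region to Vegfa lay 314808 bp from a start, and 19 decreased regions but 1 increased region lay within 1 Mb. Vegfc, the ligand of lymphatic growth, had an increased region 138 kb and a decreased region 190 kb downstream. Vegfb and Pgf were the nearest gene to no region, although each had regions within 100 kb. For Vegfb, a ligand with a role in fatty acid handling, these were 2 decreased regions at 8.2 kb and 78.8 kb. The closer, chr19:6978418-6979464, lies 924 bp from a start of Fkbp2 and is promoter-proximal to that gene. Pgf, the placental growth factor, had 2 decreased regions at 34.9 and 42.3 kb and an increased region at 74.2 kb, all nearer to Eif2b2 or Mlh3.

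The region closest to Vegfb is shown as the nearest called region to any VEGF ligand. Its 200 bases are chr19:6978773-6978972, plus strand of GRCm38.p6, with TGGGAA, the core of RBPJ sites, in capitals.
Vegfb decreased: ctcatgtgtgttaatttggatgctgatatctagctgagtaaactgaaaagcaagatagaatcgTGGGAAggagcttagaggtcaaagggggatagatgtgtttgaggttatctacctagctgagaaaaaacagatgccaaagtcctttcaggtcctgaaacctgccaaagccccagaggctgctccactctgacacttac
The region it comes from is centred 924 bp from the Fkbp2 start and holds a HIF core elsewhere in its central 500 bp.

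The 5 receptors and co-receptors of VEGF were nearest to 4 increased and 6 decreased regions. An increased region was nearest to 4 of the 5 genes (10.6% of all genes) and a decreased region to 2 (17.8% of all genes), and the groups of genes by role are too small for more than such counts. Within 100 kb of a start, 3 had an increased and 2 a decreased region (24.1% and 42.7% of all genes). Flt1, which encodes VEGFR1 and a soluble form that traps the ligand, had a single increased region 52.8 kb upstream at chr5:147778298-147779341. Kdr, which encodes the main signalling receptor VEGFR2, had a single increased region 12.1 kb upstream at chr5:75990207-75990957. Both regions are intergenic and have no other protein-coding start closer. The surroundings of Kdr held increased regions only, 4 within 1 Mb, and the closest decreased region lay 1006654 bp away. On the same chromosome 30.3% of all regions were increased. Flt4, the receptor of VEGF-C, had a decreased region 76.3 kb upstream, 2208 bp from an olfactory receptor gene.

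The co-receptors Nrp1 and Nrp2, neuropilins that also bind semaphorins, held regions of both directions. Nrp1 had an increased region in an intron, 91.5 kb downstream of a start, and decreased regions 187 and 361 kb upstream. Nrp2 had the reverse layout. Its 4 decreased regions lay in introns 25.4, 39.5, 48.1 and 56.6 kb downstream of a start, and its increased region lay 460 kb upstream in an intron of Pard3b.

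Angpt2 was the gene with the most regions within 100 kb, and the direction differed between its starts. Angpt2 encodes the angiopoietin that opposes Angpt1 at the Tie2 receptor and loosens vessels before they sprout or regress. The gene lies at chr8:18690263-18741562 on the minus strand, inside Mcph1, which is read from the opposite strand, and 10 of its 11 regions overlap Mcph1. An increased region of 950 bp was centred 60 bp upstream of the main start. A decreased region of 793 bp, chr8:18698458-18699250, was centred 693 bp downstream of a second annotated start inside the gene, 42.7 kb from the main start. A further 2 decreased regions lay in the gene at 47.3 and 51.1 kb from the main start, and 4 more beyond its end at 62.0 to 68.6 kb. Another decreased region lay 25.3 kb upstream. The remaining pair, an increased region 63.4 kb upstream and a decreased region 111 kb downstream of the main start, had Agpat5 and Mcph1 as nearest genes. Mark on DNA that both genes share cannot be assigned to either.

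The decreased region at the second start of Angpt2 is shown because its direction is opposite to that at the main start. The 200 bases, clear of annotated exons, are chr8:18698754-18698953, plus strand of GRCm38.p6. Capitals mark TGGGAA.
Angpt2 decreased: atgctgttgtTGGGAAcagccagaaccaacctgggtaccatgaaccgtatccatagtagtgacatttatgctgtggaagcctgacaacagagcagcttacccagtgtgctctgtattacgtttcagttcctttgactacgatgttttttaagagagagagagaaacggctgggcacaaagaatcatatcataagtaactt
GC content of this window was 43.5%.

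Angpt1, the ligand that stabilizes vessels through Tie2, had increased regions in an intron 130 kb from its start and 198 kb upstream, and a decreased region in an intron at 68.6 kb. The receptor genes Tek, which encodes Tie2, and Tie1 had no region by either rule. Both lie on chromosome 4, where 7.53% of regions were increased, and their closest regions were decreased, at 297094 and 237316 bp.

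**Figure D3:**
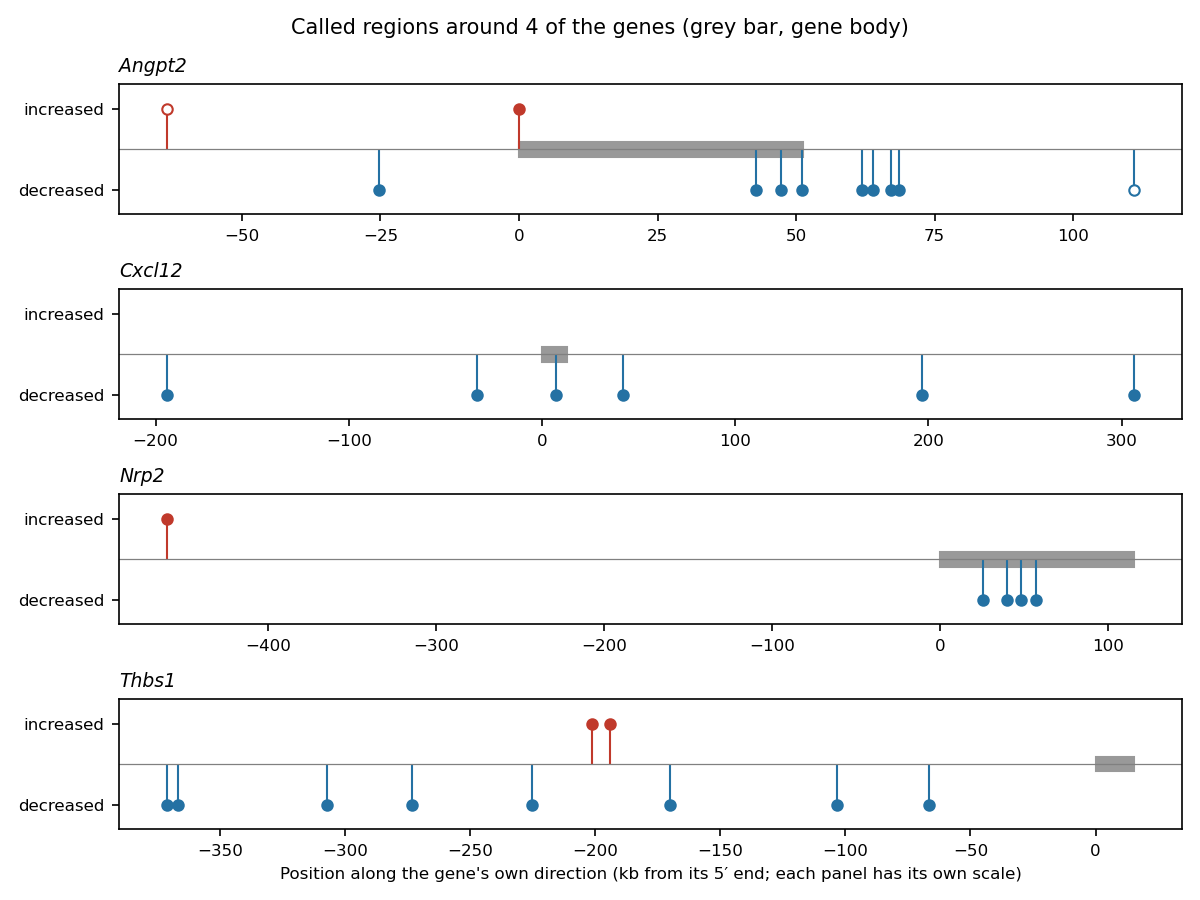
Called regions around Angpt2, Cxcl12, Nrp2 and Thbs1, placed in kb from the 5′ end of the gene along its own direction, with increased regions above and decreased regions below the line and the gene body as a grey bar. Filled points have the gene as nearest start and open points are within 100 kb only. At Angpt2 the increased region sits at 0 and decreased regions at the far end of the gene, at Cxcl12 all 6 regions point down, and at Thbs1 2 increased regions stand among 8 decreased.

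Of the 5 genes of oxygen sensing, 3 had an increased region within 100 kb of a start (24.1% of all genes) and 0 had a decreased region (42.7% of all genes). The increased regions numbered 4, of which 2 were at Hif3a and nearer to other genes. By nearest start, 2 of the 5 genes had an increased region and 1, Hif1a, a decreased region (10.6% and 17.8% of all genes). Egln1 encodes PHD2, the main prolyl hydroxylase that marks HIF alpha subunits for degradation. Its increased region of 626 bp, chr8:124952885-124953510, was intergenic and 3.87 kb upstream of the start. It was the only increased region within 1 Mb of the gene, where 18 regions were decreased, the closest of them 115860 bp away. Egln3, which encodes PHD3, had increased regions 48.6 kb upstream, 2086 bp wide, and 377 kb downstream in an intron of Npas3.

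The HIF subunits themselves had few regions. Hif1a had a decreased region 103 kb upstream, just outside the window. Epas1, which encodes HIF-2alpha, had none by either rule. Its closest region was decreased at 156212 bp, and its closest increased region lay at 216754 bp. The study, with its own nearest-gene annotation, names Epas1 among genes with increased peaks, so the assignment differs here. The reason was not tested. Hif3a, which encodes a shorter alpha subunit that can restrain the others, had increased regions 23.9 and 95.1 kb downstream, nearer to Ppp5c and Pnmal1. Hif3a lies on chromosome 7, where 97.7% of regions were increased, and within 1 Mb it had 17 increased and 0 decreased regions, so that a change at the gene and a change of the chromosome cannot be told apart.

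The increased region upstream of Egln1 is shown as the closest region of the oxygen sensors to a start. The 200 bases are chr8:124953098-124953297, plus strand of GRCm38.p6, with ACATTCC, a core of TEAD sites, in capitals.
Egln1 increased: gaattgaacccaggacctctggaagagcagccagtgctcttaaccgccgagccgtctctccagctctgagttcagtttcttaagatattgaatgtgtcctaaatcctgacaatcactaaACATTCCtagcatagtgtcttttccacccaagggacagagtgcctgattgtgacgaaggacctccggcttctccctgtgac
This window holds none of the HIF letters, ACGTG or GCGTG.

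Of the 5 growth factors and carriers, 2 (Esm1 and Fgf2) were nearest to an increased region and 0 to a decreased region, beside 10.6% and 17.8% of all genes. Within 100 kb of a start, 2 had an increased region and 1, Fgf2, a decreased region, beside 24.1% and 42.7% of all genes. Esm1 encodes endocan, a proteoglycan of sprouting tip cells that binds VEGF. It had increased regions 6.89 and 8.71 kb upstream, both inside an intron of Gzmk, and an increased region 47 kb downstream. Within 1 Mb of Esm1, 9 regions were increased and 4 decreased. Fgf2, the basic fibroblast growth factor, had an increased region of 973 bp in its own intron, 12.7 kb from the 5′ end of the gene and 5.98 kb upstream of a later start. Other increased regions lay 18 and 72.6 kb from a start of Fgf2, nearer to Cetn4 and Spata5, the latter in an intron of Spata5. A decreased region at 31.5 kb was promoter-proximal to Spata5. Fgfbp1, a carrier that releases FGFs from matrix and that muscle secretes, had no region by either rule. Its closest increased region lay 164861 bp from a start. The study names Fgfbp1 and Esm1 among genes with increased peaks, so for Fgfbp1 the assignment differs here. The wider surroundings of Fgfbp1 were increased only, with 12 increased and 0 decreased regions within 1 Mb. A pattern of at least 12 increased and 0 decreased was found at 3.24% of protein-coding genes. Fgf1 and Hgf had no region by either rule.

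The closest increased regions of Esm1 and Fgf2 follow as 200 bases each, from chr13:113202673-113202872 and chr3:37360911-37361110, plus strand of GRCm38.p6. Capitals mark ACGTG read on the minus strand in the first and TGAGTCA, the AP-1 site, in the second.
Esm1 increased: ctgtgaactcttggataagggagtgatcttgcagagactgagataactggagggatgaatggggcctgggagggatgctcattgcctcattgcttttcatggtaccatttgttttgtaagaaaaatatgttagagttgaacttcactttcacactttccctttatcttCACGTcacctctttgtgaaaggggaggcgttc
Fgf2 increased: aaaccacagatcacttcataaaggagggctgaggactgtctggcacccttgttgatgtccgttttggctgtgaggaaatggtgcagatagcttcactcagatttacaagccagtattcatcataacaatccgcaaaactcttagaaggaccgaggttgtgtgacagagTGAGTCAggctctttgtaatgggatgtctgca
All 3 increased regions of Esm1 hold a HIF core in their central 500 bp.

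Of the 5 PDGF genes, whose products recruit pericytes and fibroblasts, 3 had a decreased region within 100 kb and 0 an increased region, beside 42.7% and 24.1% of all genes. The 7 decreased regions were at Pdgfa, Pdgfb and Pdgfrb. Pdgfb, the pericyte recruiting ligand, had the closest, a decreased region of 1622 bp at chr15:80019872-80021493, 5.71 kb upstream of the start. It also had decreased regions at 34.5, 54.4 and 61.9 kb, of which the last spans 4579 bp in an intron of Cbx7 and is the widest of the 101 regions. The surroundings of Pdgfb and Pdgfa held decreased regions alone, 23 and 12 within 1 Mb with 0 increased, a pattern of at least 12 decreased and 0 increased that 6.8% of protein-coding genes share. Pdgfa had decreased regions at 50.9 and 55.0 kb, both in introns of Prkar1b. Pdgfc had 3 decreased regions, at 160 kb inside the gene and at 308 and 320 kb beyond it. The receptor Pdgfrb, a pericyte marker, had a decreased region 68.6 kb upstream in an intron of Camk2a, and Pdgfra had none.

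Cdh5, Pecam1 and Eng, genes of the endothelial surface, all had a decreased region within 100 kb and none an increased region (42.7% and 24.1% of all genes). Kdr and Flt1, described above, are endothelial genes as well and had increased regions alone. Cdh5, which encodes VE-cadherin, was nearest to 5 decreased regions, of which 4 lay 260 to 358 kb upstream in intergenic sequence and 1 in an intron 18.6 kb downstream of a second start. Pecam1, which encodes CD31, had a decreased region in an intron 77.3 kb from its 5′ end and 9.96 kb upstream of a later start, and another 51.9 kb upstream, in Cep95. Eng, which encodes the TGF-beta co-receptor endoglin, was nearest to no region but had 4 decreased regions within 100 kb, from 12.9 to 48.7 kb. They were nearest to St6galnac6, Ak1 or Fpgs, and 3 of the 4 were promoter-proximal to Ak1 or Fpgs. Within 1 Mb of Eng, 17 regions were decreased and 0 increased.

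The regions closest to Pdgfb and Pecam1 are given as 200 bases each, from chr15:80020583-80020782 and chr11:106673184-106673383, plus strand of GRCm38.p6. Capitals mark TGGGAA on the minus strand.
Pdgfb decreased: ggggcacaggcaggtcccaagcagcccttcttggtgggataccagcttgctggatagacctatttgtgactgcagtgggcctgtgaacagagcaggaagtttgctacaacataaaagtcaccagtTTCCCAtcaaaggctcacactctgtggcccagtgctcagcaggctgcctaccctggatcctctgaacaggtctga
Pecam1 decreased: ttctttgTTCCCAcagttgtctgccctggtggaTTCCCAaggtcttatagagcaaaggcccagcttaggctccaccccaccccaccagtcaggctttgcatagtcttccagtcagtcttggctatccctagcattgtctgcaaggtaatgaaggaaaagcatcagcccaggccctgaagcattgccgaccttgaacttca
The Pecam1 window holds the letters in 2 places and the Pdgfb window in 1.

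Notch genes, which decide between tip and stalk cells of a sprout, were split. The receptor Notch1 had 5 decreased and 0 increased regions within 100 kb. Of these, the nearest to it was an intergenic region 11.3 kb upstream, chr2:26527609-26528244, and the others lay 13.7 to 54.1 kb away and nearer to Sec16a, Inpp5e or Egfl7. Within 1 Mb of Notch1, 25 regions were decreased and 1 increased. The ligand Dll4, the tip cell signal, had an increased region 59.7 kb downstream in an intron of Ino80. The ligand Jag1 had an increased region 305 kb upstream and a decreased region at 91.1 kb.

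Inhibitors of vessel growth had no region within 10 kb of a start. Thbs1, which encodes thrombospondin-1, was nearest to 8 decreased and 2 increased regions, and all 10 lay upstream, between 66.4 and 371 kb. The increased pair, at 194 and 201 kb, stood between decreased regions at 170 and 225 kb. Its territory is 405 kb long, and the only region within 100 kb was decreased. Thbs2, the related thrombospondin-2, had an increased region 29.9 kb downstream of a start and no decreased region closer than 192086 bp. Adamts1, a protease that releases inhibitory fragments of thrombospondin, had a decreased region 25.6 kb upstream and 3 more at 87.8 to 95.6 kb inside Adamts5. Adamts1 lies on chromosome 16, where 7.8% of regions were increased, so that a change at the gene and a change of the chromosome cannot be told apart.

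Cxcl12 encodes SDF-1, the chemokine that draws endothelial and muscle progenitors through Cxcr4, and it had decreased regions only. Of 6 decreased regions nearest to it, the closest, chr6:117174906-117176999, was 2094 bp wide and centred inside the gene, 7.38 kb downstream of a start. The others lay at 33.4, 42.1, 194, 196 and 306 kb on both sides, and the closest increased region was 473836 bp away. Aplnr, the apelin receptor of sprouting endothelium, had a decreased region 75.5 kb upstream in an intron of Tnks1bp1.

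The surroundings of these genes leaned to decreased regions, as did those of other genes. Within 1 Mb of a start the 39 genes had a median of 3 increased and 10 decreased regions, where all protein-coding genes had 2 and 6. Decreased regions outnumbered increased ones around 30 of the 39 genes (76.9% against 66.6% of all genes). Among the increased regions of the 39 genes, the nearest other region was also increased for 11 of 26, or 42.3%, against 70.7% of all increased regions. Increased regions made up 7.53% of the regions on chromosome 4, 97.7% on chromosome 7 and 7.8% on chromosome 16. Without chromosomes 4, 7, 10 and 16, the counts were 9 of 24, or 37.5%, against 58.7%. For decreased regions the shares were 85.3% and 85.5%. These neighbour shares are descriptions without a test.

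**Figure D4:**
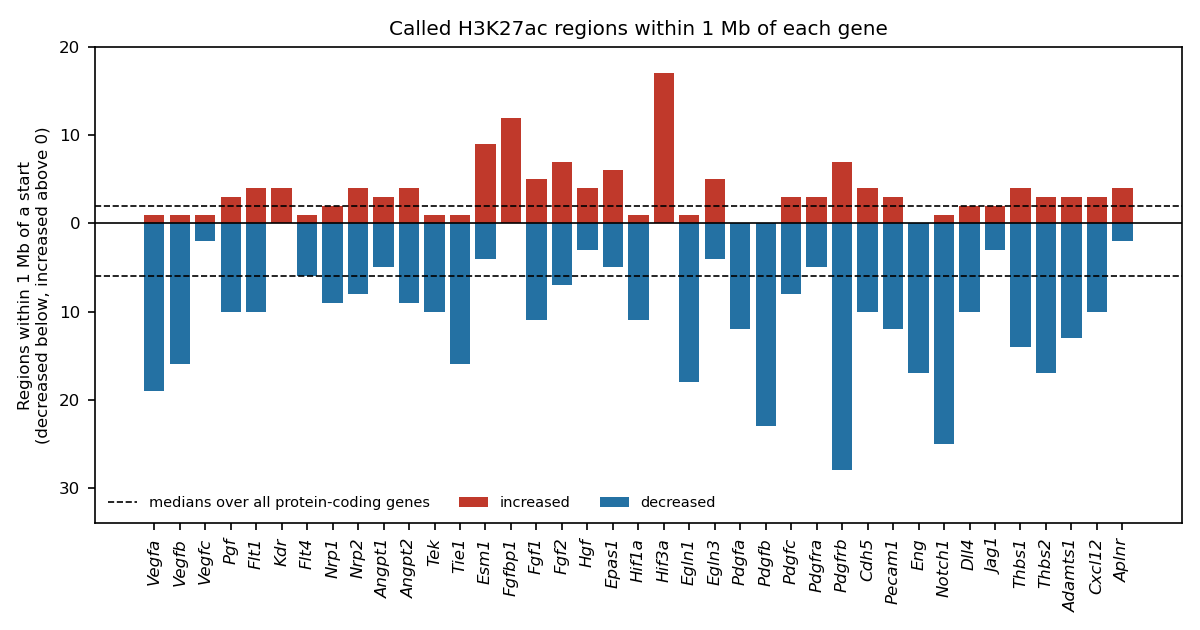
Regions within 1 Mb of a start of each gene, increased drawn upward in red and decreased downward in blue, with dashed lines at the medians over all protein-coding genes (2 increased and 6 decreased). Kdr, Fgfbp1 and Hif3a have increased regions only, Pdgfa, Pdgfb and Eng decreased regions only, and Egln1 has 1 increased region beside 18 decreased.

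In base composition the regions resembled others of their direction. Median GC content was 43.1% in the 26 increased and 47.9% in the 75 decreased regions, and 43.1% and 47.9% in all increased and all decreased regions. Median width was 719 bp for increased regions (777 bp for all) and 930 bp for decreased regions (863.5 bp for all).

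The 8 motifs were searched as exact letters on both strands in the central 500 bp of each region. A HIF core, ACGTG or GCGTG, was found in 10 of 26 increased regions (38.5%, 22.4 to 57.5) and 28 of 75 decreased regions (37.3%, 27.3 to 48.6), close to the 35.2% and 36.6% of all increased and decreased regions. A TEAD core, ACATTCC or GCATTCC, was found in 9 of 26 increased regions, or 34.6% (19.4 to 53.8), against 17.0% of all increased regions. These 9 were counted for 9 genes, namely Kdr, Nrp1, Nrp2, Esm1, Egln1, Egln3, Fgf2, Dll4 and Thbs1. The regions of Fgf2 and Dll4 have Cetn4 and Chac1 as nearest genes. Those of Nrp2, Egln3 and Thbs1 lie 460, 377 and 201 kb from a start. In decreased regions the TEAD share was 17.3% against 14.2%. The myogenic E-box CAGCTG was found in 15.4% of increased (6.15 to 33.5, against 28.8%) and 28.0% of decreased regions (19.1 to 39, against 37.9%). TGGGAA was found in 34.6% and 46.7% (39% and 42.5% of all), the AP-1 site TGAGTCA in 15.4% and 12% (16.5% and 12.8%), the KLF and SP core GGGCGG in 7.69% and 6.67% (7.45% and 9.16%), and the ETS core CCGGAAG in 1 of 26 and 0 of 75, the latter allowing up to 4.87%. These 16 shares were compared without a test, and each match is a description of letters.

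The palindrome CACGTG, which reads as a HIF core on both strands and is also an E-box, was singled out after the data had been seen. It was present in 4 of 26 increased regions, or 15.4% (6.15 to 33.5, against 5.36% of all), at Hif3a, Egln3, Fgf2 and Thbs1. It was present in 5 of 75 decreased regions, or 6.67% (2.88 to 14.7, against 6.14%). The regions of the Hif3a, Fgf2 and Pdgfb sites have Ppp5c, Spata5 and Cbx7 as nearest genes. The sites in increased regions and, for contrast, 3 of the 5 in decreased regions (a second site of Cxcl12 and that of Cdh5 are not shown, for brevity) are printed with 10 bases on each side, plus strand of GRCm38.p6, with the palindrome in capitals. They lie at chr7:17026856-17026881, chr12:53826446-53826471, chr3:37476966-37476991, chr2:117910299-117910324, chr15:79958618-79958643, chr3:81357946-81357971 and chr6:117210863-117210888 in the order shown.
Hif3a increased: ggtcaggaccCACGTGtaaaactcct
Egln3 increased: ggacagggaaCACGTGtgtgcagtta
Fgf2 increased: cctttctcttCACGTGgagctccaca
Thbs1 increased: tttgtcacccCACGTGgatcttctca
Pdgfb decreased: aaagccatgcCACGTGacagtctgtg
Pdgfc decreased: cctggctagaCACGTGaggagttcta
Cxcl12 decreased: cctcatcactCACGTGagttcccagt
The bases beside the palindrome differ from site to site.

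The element TCAAGGTCA, bound by estrogen-related receptors, which RIP140 can repress, was found in 3 of 75 decreased regions, or 4.0% (1.37 to 11.1), against 1.38% of all decreased regions. It was found in 0 of 26 increased regions, which allows a share of up to 12.9%, and in 0.919% of all increased regions. The 3 sites belong to Cdh5 and Notch1 and lie at chr8:103816675-103816703, chr2:26411163-26411191 and chr2:26527788-26527816, shown on the plus strand with the element or its reverse complement in capitals.
Cdh5 decreased: tagctgagggTGACCTTGAacgtctggtc
Notch1 decreased, in Sec16a: gccaattctgTCAAGGTCAaaagagctga
Notch1 decreased, upstream: taggctacatTGACCTTGAatcataatct
The upstream site is in the region 11.3 kb from the Notch1 start.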

How the data were processed

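CUT&RUN libraries of 4 groups of 2 (Nrip1KO and Ctrl myotubes, H3K27ac and IgG) were the source of the lists. Per the labels and methods, the authors aligned reads to mm10 with BWA-MEM2 (2.2.1), called broad peaks with HOMER (4.11) and kept regions differing by 2-fold or more. How replicates and IgG entered is not stated, and labels and methods name different antibody suppliers. The deposited files are 2 lists of positions with a constant score, which was not used, and no counts, signal or depth, so precision per library is unknown. A difference in depth, efficiency or DNA copy number between cultures would pass into the calls.

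Positions are counted from 1. All 11179 regions on chromosomes lay within the lengths of GRCm38.p6, and 1 region elsewhere was left out. Starts, exons and genes came from GENCODE M21 (21938 protein-coding genes, 93513 starts). GC content and motifs came from the GRCm38.p6 sequence. Intervals are 95% Wilson for shares and exact Poisson for rates, computed in python 3.11.15 with pandas 2.3.3, scipy 1.17.1, statsmodels 0.14.6 and pysam 0.24.0. The assignment was tested on simulated positions. Genes, roles, motifs and lists were chosen with earlier results of these data known. All 39 genes are accounted for. Sequences are shown for the regions closest to a start within 10 kb, clear of exons (none was clear for Cxcl12, and 1 is not reported here), for the second start of Angpt2 and, beyond 10 kb, for 2 motifs rather than for every HIF core, a choice made after the values were seen.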

Additional observations from a re-analysis of the deposited data

How the results depend on the processing

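No paired analysis was possible because the lists hold no value per library, and leaving out a replicate was not possible for the same reason. Of 81 values recomputed under an alternative, 43 stayed within 1.5 times the count or within the counting interval and 38 did not. When all GENCODE genes could be the nearest gene, 9 genes had an increased region, 7 a decreased region, 2 both and 25 none, from 10 increased and 10 decreased regions, with 6.71% and 12.4% of protein-coding genes, which ended the lean of nearest regions to decreased. With regions at least 1 kb wide, the genes numbered 4, 9, 1 and 27, the regions 4 and 18, the background 4.24% and 9.11%, and the rate 2.37 per Mb, with 6 and 12 genes within 100 kb. With the nearest start at most 100 kb away, 9 genes had an increased region and 1 both, from 10 increased and 23 decreased regions, with 9.17% and 16.6% of all genes and 3.55 regions per Mb. Overlap with the gene body left 4 genes with 4 increased and 7 genes with 12 decreased regions. Without chromosomes 4, 7, 10 and 16, the background of increased regions was 9.63%. A window of 250 kb gave 20 genes with increased and 32 with decreased regions, and 50 kb gave 12 with decreased. No share of all genes is given for these windows, for gene bodies or for wide regions within 100 kb, so those counts have no background. A limit of 2.5 kb made 17 decreased regions promoter-proximal. Searching whole regions raised the decreased shares to 65.3% for HIF, 45.3% for the E-box and 61.3% for TGGGAA. The same search gave 58.1%, 57.4% and 63.9% of all decreased regions. The cause was not tested beyond the fewer or longer regions or genes that each alternative itself admits.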

Other observations

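The lists of genes in this section were chosen with earlier results of these data known, so their shares are descriptions and not independent support. Other genes of vascular signalling had mostly decreased regions. Of 42 genes that act beside the 39, 29 had a nearest decreased region (69.0%, against 17.8% of all protein-coding genes), and 7 had an increased region (16.7% against 10.6%), each beside a decreased one. Their territories are long as well, with a median of 166 kb against 45.1 kb. Per Mb of territory, decreased regions stood at 7.81 against 2.66 genome-wide and increased regions at 1.2 against 1.44. Cxcr4, the receptor of Cxcl12, was nearest to 10 decreased and 0 increased regions, the closest 4.61 kb from a start. Rbpj, the DNA-binding partner of Notch, was nearest to 9 decreased regions, the closest at 2.85 kb. Among other Notch genes, Notch4, Jag2 and Notch3 had decreased regions alone, at 0.346, 2.81 and 7.13 kb, and Dll1 was nearest to 4 decreased regions. The Notch target Hes1 had 1 region of each direction, the closer increased at 122 kb. Sema3e, a semaphorin that repels endothelial cells, had 8 decreased and 1 increased region, whereas Sema3a had 4 increased and 3 decreased, with the closest increased region at 0.108 kb. The vessel matrix gene Col4a1 and the receptor gene Acvrl1 had promoter-proximal decreased regions, at 0.897 and 0.579 kb.

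Targets and partners of HIF were mixed. Of 35 genes, 6 were nearest to increased regions alone (17.1% against 10.6% of all genes), 10 to decreased regions alone (28.6% against 17.8%) and 19 to none. Within 100 kb, 11 of the 35 had an increased and 16 a decreased region, beside 24.1% and 42.7% of all genes. Per Mb of territory, increased regions stood at 4.14 against 1.44 genome-wide and decreased regions at 5.26 against 2.66. Of the 6, Arnt2, Egln2, Bnip3 and Adm lie on chromosome 7, where 97.7% of regions were increased, and the others were Ero1a and Mxi1. Most of the 11 increased regions behind the rate lie on that chromosome, with 5 at Arnt2, 2 at Bnip3 and 1 each at Egln2 and Adm. Those with decreased regions included Slc2a1, Hk2, Pfkfb3, Pfkfb4, Pdk1, P4ha1, Ndrg1, Car12 and Lox, among them genes of glucose uptake and glycolysis, with 1 or 2 regions per gene. Of these, Slc2a1 lies on chromosome 4, where 7.53% of regions were increased.

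Markers of cell types gave small counts, set here beside 10.6% of all genes with a nearest increased and 17.8% with a nearest decreased region. For the counts within 100 kb, the shares of all genes are 24.1% increased and 42.7% decreased. Of 15 endothelial markers, 4 were nearest to decreased regions (Cdh5, Pecam1, Cldn5 and Egfl7, 26.7%), 2 to increased regions (Kdr and Flt1, 13.3%) and 9 to none, while 6 had a decreased and 3 an increased region within 100 kb. Of 8 mural markers, 4 were nearest to decreased regions (50%) and 1, Abcc9, to an increased region 0.053 kb from a start (12.5%), while 5 and 1 had such regions within 100 kb. The endothelial Cldn5 and the mural Myh11, both nearest to decreased regions, lie on chromosome 16, where 7.8% of regions were increased. Of 7 fibro-adipogenic markers, 2 were nearest to regions of each direction (28.6%), while 3 had a decreased and 1 an increased region within 100 kb. Of 9 myotube markers, Myh3 alone was nearest to a region, an increased region 27.6 kb from a start (11.1%), while 4 had an increased and 4 a decreased region within 100 kb. What part other cells in the cultures have in the regions above was not tested.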
